A study of Rattus norvegicus with 8 samples.

Results

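The miRNAs of the miR-192, miR-194 and miR-215 clusters were examined in the small RNA of rat kidney after treatment with aristolochic acid (AA). Rows of the deposited count table were taken when the name after rno- was miR-192, miR-194 or miR-215, alone or with an arm suffix. This rule found 5 of the 620 rows, namely rno-miR-192, rno-miR-192*, rno-miR-194, rno-miR-194* and rno-miR-215, where the star names the arm of a hairpin that miRBase took as the minor one. All 5 were among the 367 miRNAs tested. A further row, rno-mir-194-1*, carries a copy number that the rule does not include, and it held 1 read in the third control library and 0 reads in the other 7.

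The rats were male Fisher 344 animals of the Big Blue transgenic strain, which carries a reporter gene for mutation assays, and they were 6 weeks old when dosing began. The 4 rats of the AA group received 10 mg/kg of AA as the sodium salt at each gavage, with 5 doses each week over 12 weeks. The AA was 96% pure and held 40% AAI and 56% AAII. The 4 control rats were gavaged at the same times with 0.9% sodium chloride alone, and kidneys were taken 1 day after the last dose. RNA came from a piece of whole kidney, so that tubules, glomeruli, vessels and any infiltrating cells were sequenced together.

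miRNAs are short RNAs that lower the output of mRNAs that pair with their seed, the bases from position 2 to position 8. miR-192, miR-194 and miR-215 are made from 2 pairs of neighbouring hairpins, in which a miR-194 hairpin lies beside either the miR-192 or the miR-215 hairpin, and each pair can be cut from a shared primary transcript. They are known as miRNAs of epithelia of kidney, liver and gut, where hepatocyte nuclear factors drive their transcription. Published work also links them to p53, and links miR-192 in kidney to TGF-beta and the extracellular matrix.

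The sequences below show which members share a seed, and hence which mRNA sites they can share. They were taken from RefSeq with coordinates of the rat assembly GRCr8, in which all 4 hairpins were matched, and they are written 5′ to 3′ with the seed in capitals. The star arms of the count table were matched to the 3p arms. Mir194-2 and Mir192 lie on chromosome 1, on the plus strand, with 100 bases between the hairpins. Mir194-1 and Mir215 lie on chromosome 13, also on the plus strand, with 191 bases between the hairpins.
rno-miR-192 (chr1:212994232-212994252): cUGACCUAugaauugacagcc
rno-miR-215 (chr13:99383003-99383024): aUGACCUAugauuugacagaca
rno-miR-194 (chr1:212994038-212994059 and chr13:99382730-99382751): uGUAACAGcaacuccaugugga
rno-miR-192* (chr1:212994275-212994296): cUGCCAGUuccauaggucacag
rno-miR-194* (chr1:212994074-212994094): cCAGUGGGgcugcuguuaucu
The main arms of miR-192 and miR-215 have the same seed, UGACCUA, and in the 693 mature names of the RefSeq table no other name has it. Compared without gaps from the 5′ end over 21 bases, they differ by C1A, A12U and C20A, with the base of miR-192 first and positions counted from its 5′ end. Reads that carry a mismatch or are trimmed could therefore be counted on the other member, which was not tested. miR-194 has a seed of its own, GUAACAG.

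The main arm of miR-194 has the same sequence in both hairpins, so that its reads cannot be assigned to a chromosome. The star arms can be told apart. RefSeq places the sequence of rno-miR-194* in Mir194-2, beside miR-192, and the best window of Mir194-1 differs from it by G8A, U19C and C20U, counted from the 5′ end of rno-miR-194*. Over the 8 libraries, rno-miR-194* held 969 reads against the 1 read of the row named rno-mir-194-1*, which by its name belongs to the hairpin beside miR-215. Nearly all counted star reads of miR-194 were thus named for the hairpin beside miR-192. The row rno-mir-194-1* is among 61 of the 620 rows that are named with a lower-case mir. Whether reads were counted on such rows in the same way as on the others was not tested, so the output of the hairpins was not compared.

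The control libraries held 15250865, 14674442, 15525397 and 13736874 reads on known miRNAs. The totals of the AA libraries were 13412373, 15200830, 13814612 and 15616670. The members together took 3.72% ± 2.15 of the reads of a control library and 2.51% ± 0.544 of those of an AA library (SD, n = 4 each). The difference of -1.22 percentage points did not pass a two-sided exact permutation test (p = 0.371), and it was -0.149 without the fourth control library and -0.363 in the libraries numbered 1 to 3. miR-192 alone held 94.3% of all reads on the members, miR-194 held 5.59%, and the other 3 rows held 1019 (miR-192*), 969 (miR-194*) and 1508 reads (miR-215) over all 8 libraries. One field of the labels names the tissue as liver, against kidney in the study's text. miR-122, the defining miRNA of liver, was at 0.696 to 53.01 CPM (counts scaled to library size with the TMM factors of edgeR) in 7 libraries and at 523 CPM in the second AA library, while miR-192 was at 14294 CPM or more in every library.

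The 2 libraries numbered 4, 1 of each group, stood apart from the others of their group in some of these miRNAs. Control library 4 lay outside the range of the other control libraries for miR-192, miR-192* and miR-215, and inside it for miR-194 and miR-194*. AA library 4 lay outside the range of the other AA libraries for miR-192, miR-194 and miR-215, and inside it for miR-192* and miR-194*. Across the 367 tested miRNAs, which are not independent replicates, the deviations of the 2 libraries numbered 4 from their group means had a correlation of 0.35, against 0.05, 0.20 and 0.14 for the numbers 1, 2 and 3. The labels name no batch for them. The fold changes and ratios of the members are therefore given for all 8 libraries and for the 6 libraries numbered 1 to 3.

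The comparison of AA with control rats asks whether these epithelial miRNAs changed in the treated kidney. miR-194 and its star arm were lower in the AA group, with group means 39.6% and 44.0% below those of the control rats, and every AA rat lay below every control rat for both. miR-192, miR-192* and miR-215 had lower means in the AA group as well, but the groups overlapped and none of the 3 passed the test. In the quasi-likelihood test of edgeR, with p-values adjusted over all 367 tested miRNAs, 2 of the 5 members were called lower at an adjusted p under 0.05 and 0 were called higher. Of all tested miRNAs, 16.3% were called in either direction and 5.99% were called lower. The log2 fold change was below 0 for 5 of 5 members, with a median of -0.79, and below 0 for 45.2% of all tested miRNAs, whose median was 0.06. The members are not independent of each other, since arms of the same hairpin and hairpins of a pair share a transcript. In whole kidney, fewer cells that make a miRNA and less of it in each cell cannot be told apart.

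**Figure D1:**
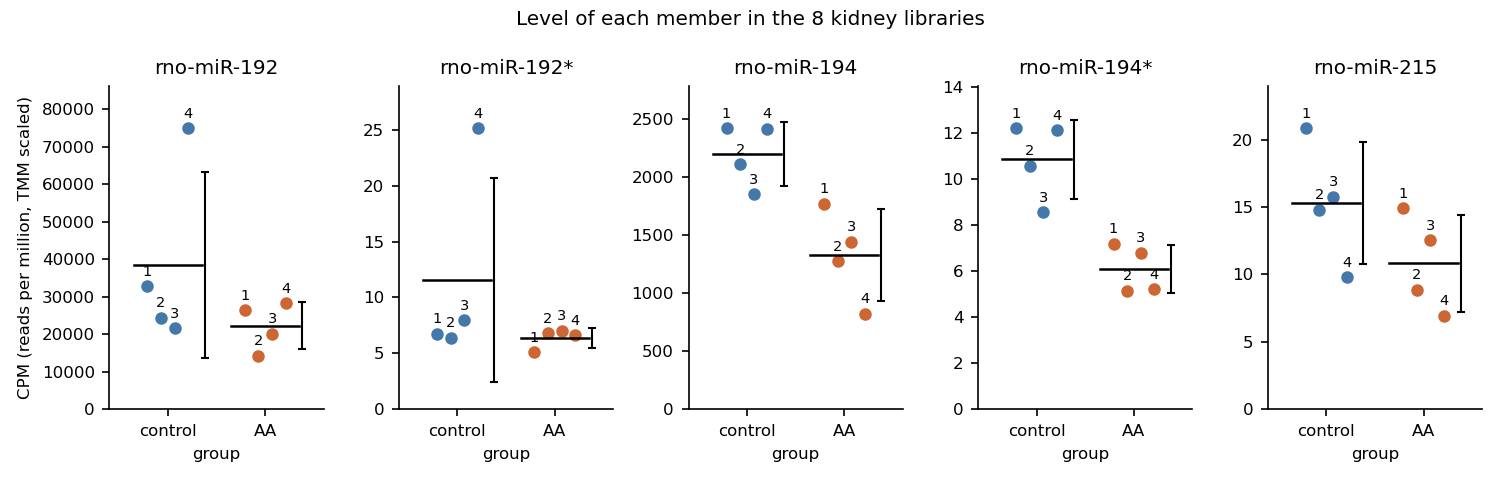
Level of each of the 5 members in CPM (counts scaled to library size by TMM, linear axis from 0) in the 4 control and 4 AA libraries, with the library number beside each point, the group mean as a line and the SD as a bar. The control and AA points do not overlap for miR-194 and miR-194*, and the fourth control library stands far above the rest for miR-192 and miR-192*.

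miR-194 was the second most abundant member. It was at 2424, 2112, 1854 and 2418 CPM in control libraries 1 to 4. In AA libraries 1 to 4 it was at 1773, 1277, 1445 and 822 CPM. The highest AA rat lay just below the lowest control rat, and the fourth AA rat was the lowest of all. The means were 2202 ± 274 CPM for control and 1329 ± 396 CPM for AA rats (SD, n = 4 each). The log2 fold change of miR-194 was -0.73 with a standard error of 0.22 (edgeR, adjusted p = 0.0499). Among all tested miRNAs, 9.81% had every AA rat below every control rat, and 24.3% had groups without overlap in either direction.

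This adjusted p lies at the threshold. As a share of all counted reads, with no TMM scaling, miR-194 was at 0.204% ± 0.0117 in control and 0.142% ± 0.0362 in AA rats (SD, n = 4 each), again without overlap (exact permutation test, two-sided, p = 0.0286, the smallest that 4 against 4 rats can give). In the edgeR fit without TMM factors the log2 fold change was -0.53 and the call was lost (adjusted p = 0.090). It was also lost without control library 1, 2 or 4 and without AA library 2 or 3, 5 of the 8 libraries left out in turn (adjusted p from 0.0717 to 0.114 from edgeR). In the 6 libraries numbered 1 to 3 it was called, at -0.56 on the log2 scale with a standard error of 0.13 (edgeR, adjusted p = 0.035), where 7.02% of 356 miRNAs were called lower.

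rno-miR-194*, the opposite arm from the hairpin beside miR-192, was at 163, 144, 138 and 149 reads in control libraries 1 to 4 and at 93, 95, 99 and 88 reads in AA libraries 1 to 4. After scaling these were 12.2, 10.6, 8.56 and 12.1 CPM against 7.19, 5.15, 6.81 and 5.21 CPM. The groups did not overlap in reads or in CPM. Its log2 fold change, -0.84 with a standard error of 0.22 (edgeR, adjusted p = 0.031), was close to that of the main arm. The call was lost without control library 1, 2 or 4 or AA library 2 (adjusted p from 0.056 to 0.086 from edgeR) and with total counts (adjusted p = 0.052). It was made in the libraries numbered 1 to 3, at a log2 fold change of -0.76 (adjusted p = 0.035 from edgeR).

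miR-192 was among the most abundant miRNAs of the kidney. It ranked from 4 to 7 among the 620 rows in the control libraries and from 7 to 9 in the AA libraries. Its level was 32806, 24360, 21508 and 74958 CPM in control libraries 1 to 4 and 26343, 14294, 20147 and 28268 CPM in AA libraries 1 to 4. The fourth control rat was more than 2 times as high as any other rat, and the remaining 7 rats overlapped. The means were 38408 ± 24835 CPM for control and 22263 ± 6343 CPM for AA rats (SD, n = 4 each). The log2 fold change of miR-192 was -0.79 with a standard error of 0.39 (edgeR, adjusted p = 0.20). Without the fourth control library it was -0.24 (adjusted p = 0.55), and in the libraries numbered 1 to 3 it was -0.42 with a standard error of 0.22 (adjusted p = 0.25, both from edgeR). The value with all 8 libraries was of the same size as that of miR-194, and its standard error was larger.

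rno-miR-192*, the opposite arm of the same hairpin, was at 90, 87, 128 and 309 reads in control libraries 1 to 4 and at 66, 125, 102 and 112 reads in AA libraries 1 to 4. The fourth control library was again the highest, at 25.2 CPM against 6.40 to 7.94 in the other control libraries and 5.10 to 7.02 in the AA libraries. Both arms of the miR-192 hairpin were thus high in that library. The groups overlapped, and the log2 fold change was -0.85 with a standard error of 0.43 (edgeR, adjusted p = 0.21). It was -0.14 without the fourth control library (adjusted p = 0.65) and -0.21 in the libraries numbered 1 to 3 (adjusted p = 0.55, both from edgeR).

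rno-miR-215, which shares its seed with miR-192, was rare in these kidneys. It was at 278, 201, 254 and 120 reads in control libraries 1 to 4 and at 193, 163, 182 and 117 reads in AA libraries 1 to 4. In CPM these were 20.8, 14.8, 15.8 and 9.78 for control and 14.9, 8.84, 12.5 and 6.93 for AA libraries. The groups overlapped, and the library numbered 4 was the lowest of each group, the reverse of the order seen for miR-192. The log2 fold change of miR-215 was -0.50 with a standard error of 0.30 (edgeR, adjusted p = 0.29). In the libraries numbered 1 to 3 it was -0.55 with a standard error of 0.21 (edgeR, adjusted p = 0.13). It was -0.32 without control library 1 (adjusted p = 0.54) and -0.79 without AA library 1 (adjusted p = 0.12, both from edgeR).

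Ratios between members within a library do not depend on the scaling between libraries, and they show how far clustered members moved together. The ratio of miR-192 to miR-194 was 13.5, 11.5 and 11.6 in control libraries 1 to 3 and 14.9, 11.2 and 13.9 in AA libraries 1 to 3. In the libraries numbered 4 it was 31.0 for control and 34.4 for AA. The ratio thus lay in a narrow range in 6 rats of both groups. In the libraries numbered 4 it was 2.54 times (control) and 2.60 times (AA) the geometric mean of the others of the group. In the fourth control rat miR-192 was high and miR-194 was near the other rats, whereas in the fourth AA rat miR-192 was the highest of its group and miR-194 the lowest.

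The ratio of miR-192 to miR-215, the members that share a seed, was 1574, 1647 and 1365 in control libraries 1 to 3 and 1766, 1616 and 1609 in AA libraries 1 to 3. It was 7668 in the fourth control library and 4079 in the fourth AA library. Nearly all reads with the seed UGACCUA were therefore of miR-192 in every rat. Ratios of reads are not ratios of molecules, since ligation and amplification favour some sequences over others.

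The ratio of miR-194 to miR-215 varied little in 7 of the 8 rats. It was 116, 143 and 118 in control libraries 1 to 3 and 119, 144, 115 and 119 in AA libraries 1 to 4. The single rat outside this range was the fourth control rat, at 247. In the fourth AA rat, which had the lowest level of each, miR-194 and miR-215 kept the ratio of the other rats.

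**Figure D2:**
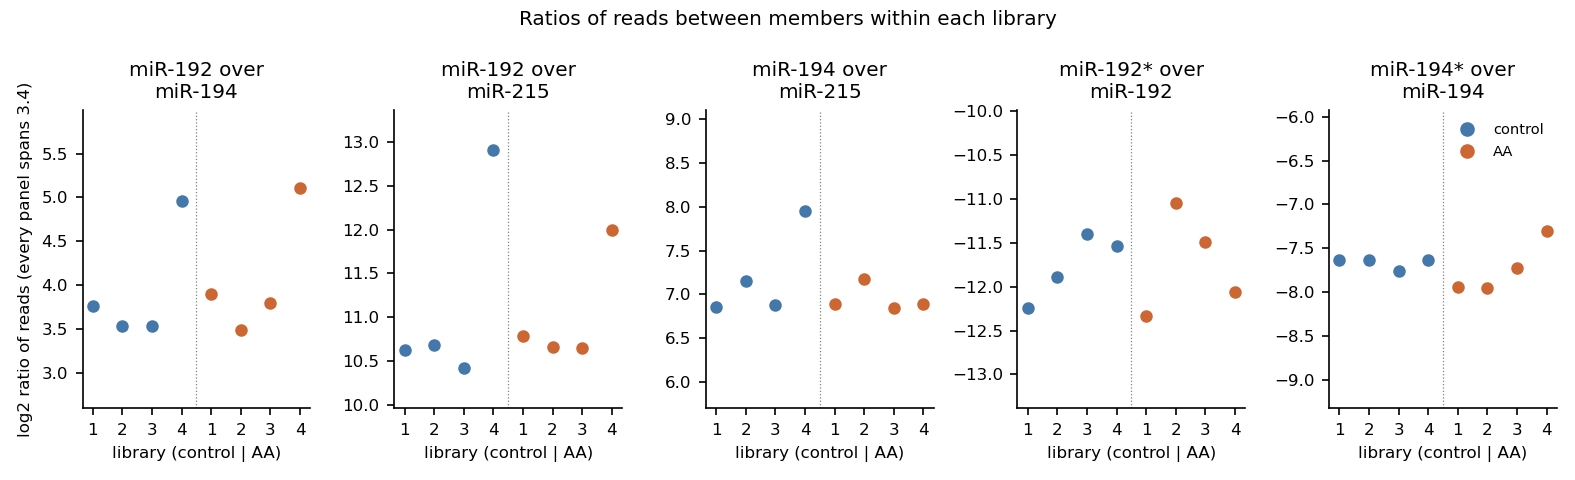
Log2 ratio of reads within each library for the 3 pairs of main arms and for each star arm over its main arm, with control and AA libraries separated by a dotted line and every panel spanning the same range. The libraries numbered 4 stand above the others of their group for miR-192 over miR-194 and for miR-192 over miR-215 in both groups.

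None of the 5 ratios compared passed a test between the groups, and all overlapped. The AA minus control difference of the log2 ratio was 0.13 for miR-192 over miR-194 (exact permutation test, two-sided, p = 0.60). It was -0.13 for miR-192 over miR-215 (exact p = 0.943) and -0.26 for miR-194 over miR-215 (exact p = 0.629). For the star arm over the main arm it was 0.04 in miR-192 (exact p = 0.943) and -0.07 in miR-194 (exact p = 0.857). Adjusted over the 5 ratios by the Benjamini-Hochberg method, each exact permutation p was 0.943. In the libraries numbered 1 to 3 the 3 differences between main arms were 0.12, 0.13 and 0.01 in the same order, with standard deviations between rats of at most 0.21. The differences of star over main arm were 0.23 for miR-192 and -0.20 for miR-194 in those libraries. Single libraries moved the differences and turned the sign of some. Without the fourth control library, miR-192 over miR-194 was at 0.46, miR-192 over miR-215 at 0.45 and miR-194 over miR-215 at -0.0142. Without the fourth AA library they were at -0.22, -0.46 and -0.24.

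The arms of each hairpin differed widely in abundance. rno-miR-194* was at 5.04, 5.02, 4.62 and 5.02 reads per 1000 reads of miR-194 in control libraries 1 to 4 and at 4.05, 4.04, 4.71 and 6.34 in AA libraries 1 to 4. rno-miR-192* was rarer, at 0.206 to 0.369 reads per 1000 reads of miR-192 in control rats and 0.194 to 0.474 in AA rats. The star to main ratio of miR-192 in the fourth control library, 0.336 per 1000, lay inside the range of the other control libraries. The standard deviation of the log2 ratio of miR-194* to miR-194 was 0.06 in control rats and 0.31 in AA rats, where the fourth rat was the highest. In the libraries numbered 1 to 3 it was 0.072 and 0.13, and the difference in spread was not tested.

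The members differed in their spread between rats. In the control group the standard deviation of log2 CPM was 0.81 for miR-192 and 0.92 for miR-192*, larger than in 94.6% and 96.5% of all tested miRNAs. Over control libraries 1 to 3 it was 0.31 for miR-192 and 0.16 for miR-192*, larger than in 76.0% and 43.1% of all tested miRNAs, whose median was 0.18 in those libraries. The rank of both spreads thus rested on the fourth control library. In the whole control group the standard deviation was 0.18 for miR-194, 0.24 for miR-194* and 0.45 for miR-215, against a median of 0.30. Over control libraries 1 to 3 it was 0.19, 0.26 and 0.26 in the same order, against the median of 0.18. These were larger than in 52.0%, 65.1% and 67.3% of all tested miRNAs. Among the 50 tested miRNAs with a mean of more than 1000 CPM, 0 had a larger spread in the control group than miR-192, and the next was at 0.47. In the AA group the spread was 0.45 for miR-192, 0.47 for miR-194, 0.21 for miR-192*, 0.25 for miR-194* and 0.49 for miR-215, against a median of 0.37. Over AA libraries 1 to 3 it was 0.44 for miR-192 and 0.24 for miR-194, against a median of 0.26. miR-192 in the fourth control library lay 1.54 on the log2 scale above the mean of the other 3 control libraries, and 12 of the 367 tested miRNAs lay farther above in that library. In the fourth AA library miR-192 lay 0.52 above the other 3, miR-194 was at -0.85 and miR-215 at -0.76 on the same scale. In that library 95 of the 367 tested miRNAs lay farther above than miR-192, 44 farther below than miR-194 and 51 farther below than miR-215.

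**Figure D3:**
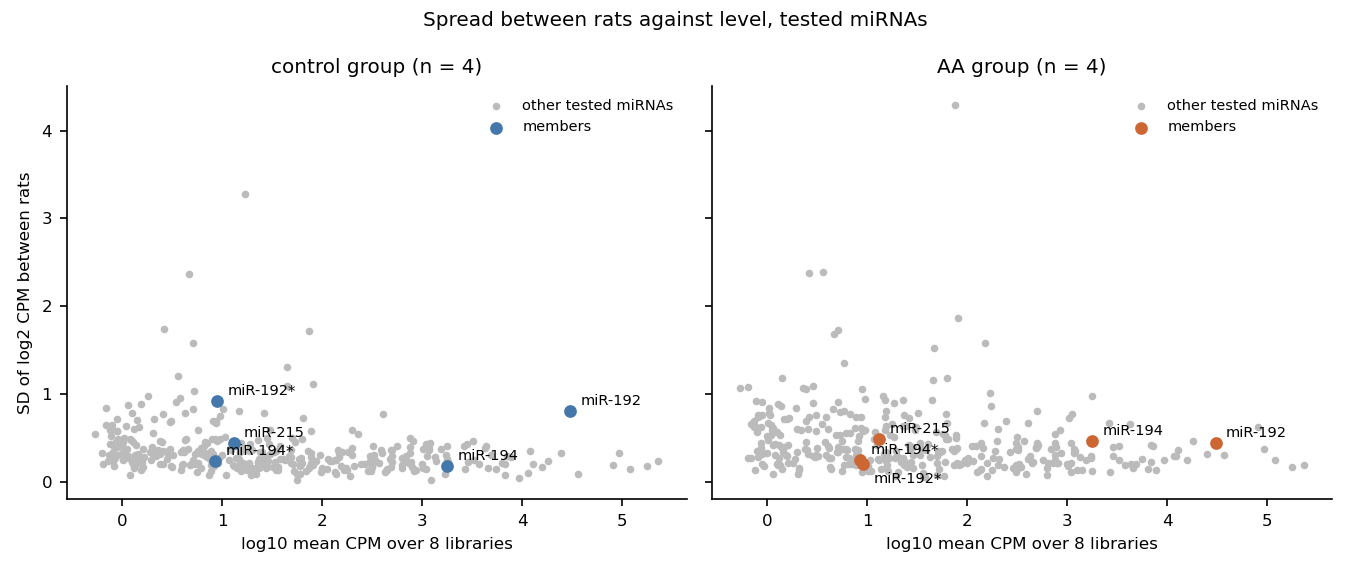
Standard deviation of log2 CPM between the 4 rats of a group against the log10 mean CPM over all 8 libraries, for the 367 tested miRNAs with the 5 members marked. miR-192 has the largest control spread (0.81) of the 50 miRNAs with a mean above 1000 CPM, while miR-194 (0.18) lies below the median of 0.30. Over control libraries 1 to 3, which are not drawn, the spread of miR-192 is 0.31. There miR-194 (0.19) lies just above the median (0.18).

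The miRNAs with the most similar profiles were sought for each main arm. Log2 CPM over the 8 libraries were centred on the mean of each miRNA, and the root-mean-square difference from the member was taken over all 366 other tested miRNAs. The nearest to miR-192 were rno-miR-139-3p (0.23), rno-miR-30c-2* (0.24), rno-miR-27b (0.27), rno-miR-218 (0.27) and rno-miR-184 (0.30, all on the log2 scale), against a median of 0.79. These 5 were all highest in the fourth control library, and none of them was called between the groups (adjusted p from 0.113 to 0.595 from edgeR). With the library number as a block, 4 of the 5 were called lower, all but rno-miR-184 (edgeR, adjusted p from 0.0136 to 0.0412). In that fit 31 of all 367 tested miRNAs were called lower, and miR-192 itself was not called (adjusted p = 0.083 from edgeR). The 5 were chosen for likeness to miR-192 over these same libraries, so a shared peak and direction follow in part from the choice. rno-miR-27b belongs to the miR-23, miR-27 and miR-24 clusters, and rno-miR-30c-2* is a star arm of the miR-30 family. The cluster partner miR-194 ranked 83 of 366 for miR-192, at 0.61, and miR-215 ranked 214, at 0.82, while miR-192* ranked 22, at 0.42. miR-194*, the arm from the hairpin beside miR-192, ranked 36, at 0.49.

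The nearest to miR-194 were rno-miR-140* (0.14), rno-miR-191 (0.17), rno-miR-134 (0.18), rno-miR-541 (0.19) and its own star arm rno-miR-194* (0.19), against a median of 0.62. Of these, rno-miR-140* was called lower, at -0.68 on the log2 scale (edgeR, adjusted p = 0.021, called in 13 of 16 alternative fits). rno-miR-191 was at -0.64 (adjusted p = 0.054 from edgeR, called in 7 of 16 alternative fits). Likeness over the 8 libraries includes the difference between the groups, so fold changes near that of miR-194 follow in part from the choice. rno-miR-140*, at 14195 CPM in the control group, is the more abundant arm of its hairpin in these libraries. miR-215 ranked 32 for miR-194, at 0.35, and miR-192 ranked 172.

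The nearest to miR-215 were rno-miR-218-1* (0.18), rno-miR-100 (0.20), rno-miR-320 (0.22), rno-miR-33 (0.23) and rno-miR-140 (0.24), against a median of 0.62. None of these 5 was called between the groups (adjusted p from 0.258 to 0.590 from edgeR). miR-194 ranked 32 for miR-215, and miR-192, with the same seed, ranked 278 of 366. The same 5 names were nearest to each member in the same order when the TMM factors were left out. All profiles share the 8 libraries, so that likeness includes what a library did to many miRNAs at once.

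**Figure D4:**
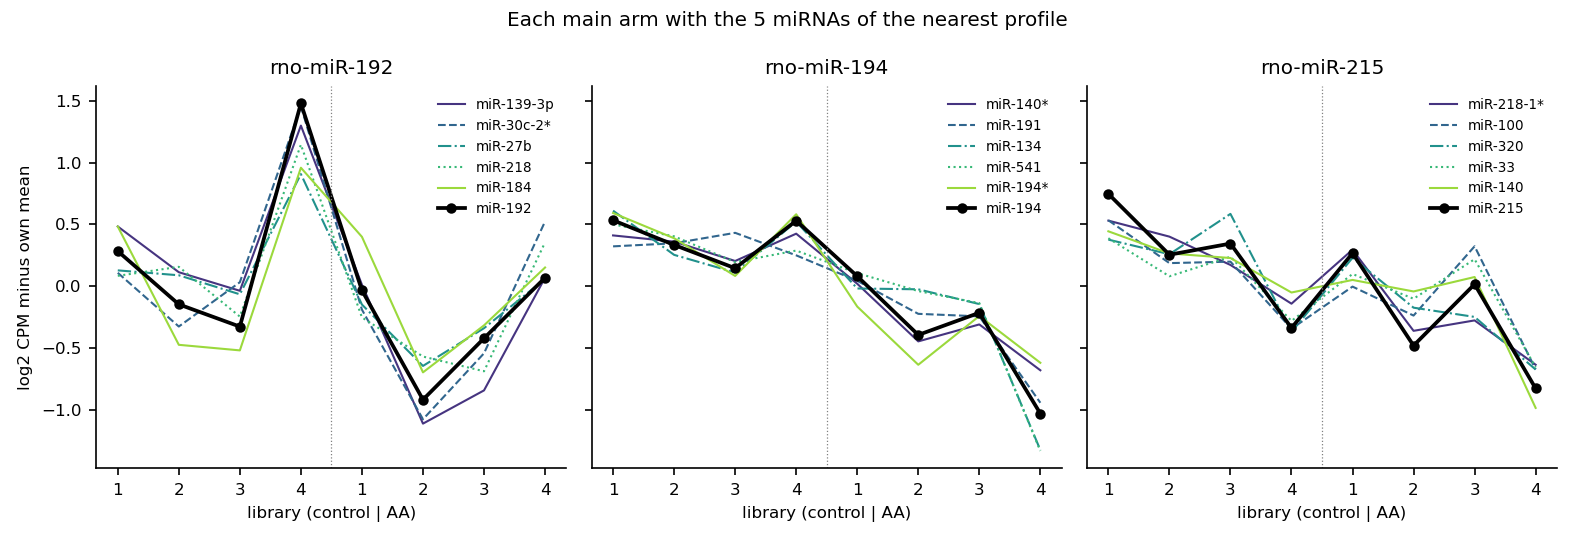
Log2 CPM minus the mean of each miRNA in the 8 libraries for miR-192, miR-194 and miR-215 (black) and the 5 miRNAs nearest to each, with lines only to follow a miRNA between libraries. miR-192 and its neighbours peak in the fourth control library, whereas miR-194, miR-215 and their neighbours are lowest in the fourth AA library, except miR-194*, which is lowest in the second.

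Other miRNAs of the nephron and of the pathways named above were set beside the members. In the nephron list, 8 of 9 miRNAs were tested, 1 was called lower and 0 higher, with a median log2 fold change of -0.21. Among all 367 tested miRNAs 5.99% were called lower and 10.4% higher, so that 1 of 8 is near the background. The call was rno-miR-204, a miRNA of renal epithelium, at 30.3 ± 6.999 CPM in control and 17.4 ± 2.43 CPM in AA rats (SD, n = 4 each). It fell by 0.80 on the log2 scale (edgeR, adjusted p = 0.034) and was called in 9 of 16 alternative fits. The abundant rno-miR-30a was at -0.17 (adjusted p = 0.51) and rno-miR-10a-5p at -0.25 (adjusted p = 0.48). The remaining nephron members rno-miR-30b-5p, rno-miR-30c, rno-miR-30d, rno-miR-30e and rno-miR-10b lay between -0.38 and 0.02 and were not called, while rno-miR-211 had at most 4 reads in any library.

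Of 8 miRNAs that published work links to p53, 7 were tested, 3 were called higher and 1 lower, against 10.4% higher and 5.99% lower among all tested miRNAs. The higher calls were rno-miR-34a, rno-miR-34b and rno-miR-34c, the family induced by p53, at log2 fold changes of 4.48, 3.77 and 3.804 (edgeR, adjusted p of at most 6.09e-05), and the lower call was rno-miR-107, at -0.72 (adjusted p = 0.037 from edgeR, called in 6 of 16 alternative fits). rno-miR-143 (-0.36), rno-miR-145 (0.27) and rno-miR-16 (0.14) were not called. miR-192, miR-194 and miR-215, which are described as induced by p53 in other cells, had log2 fold changes below 0 here. Of the list linked to TGF-beta and fibrosis, 8 of 9 were tested, 2 were called higher and 0 lower, against the same 10.4% and 5.99%. The higher calls were rno-miR-21, a miRNA of injured kidney, at 1.99 (adjusted p = 0.00115 from edgeR), and rno-miR-199a-3p, of stromal cells, at 0.65 (adjusted p = 0.033, called in 7 of 16 alternative fits). The collagen-repressing rno-miR-29a, rno-miR-29b and rno-miR-29c lay between -0.13 and 0.21 and were not called. Nor were rno-miR-199a-5p (0.80), rno-miR-214 (0.50) and rno-miR-382 (-0.49), and rno-miR-433 had at most 1 read in any library. rno-miR-199a-5p was called in 1 of 16 alternative fits, the fit with the library number as a block.

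Markers of cell types were read in the same libraries. In the epithelial list (rno-miR-141, rno-miR-200a, rno-miR-200b, rno-miR-200c and rno-miR-429), which marks epithelial cells in general, 0 of 5 were called, and the median log2 fold change was -0.07. Their summed level was 9326, 9191, 10932 and 7114 CPM in control libraries 1 to 4 and 7663, 9131, 9871 and 5533 CPM in AA libraries 1 to 4, with rno-miR-200b the most abundant, none of them at 0, and the library numbered 4 lowest in each group. In the leukocyte list, 4 of 5 were tested and 2 were called higher (10.4% of all tested miRNAs were), rno-miR-142-3p at 1.47 (adjusted p = 0.00182 from edgeR) and rno-miR-223 at 1.02 (adjusted p = 0.019, called in 11 of 16 alternative fits). rno-miR-150 (0.58) and rno-miR-142-5p (0.30) were not called. rno-miR-150 was called in 3 of 16 alternative fits, among them the fit with the library number as a block. The summed leukocyte level, mostly rno-miR-142-3p, was 1264, 1089, 1164 and 914 CPM in control libraries 1 to 4 and 2435, 2930, 2057 and 4121 CPM in AA libraries 1 to 4. The groups did not overlap, as for 24.3% of single tested miRNAs, and the fourth AA library, where miR-194 was lowest, was the highest. The part of leukocyte RNA in the lower level of miR-194 and miR-194* was not tested.

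In the libraries numbered 1 to 3 the calls of rno-miR-204, the 3 miR-34 members, rno-miR-107, rno-miR-21, rno-miR-142-3p and rno-miR-223 were made as well, while rno-miR-199a-3p was at 0.50 and not called (edgeR, adjusted p = 0.12). No other marker list held a call. The red blood cell list had 2 of 3 tested (rno-miR-451 at -0.72 and rno-miR-144 at -0.49) and the skeletal muscle list 3 of 4 (rno-miR-1 at -0.22, rno-miR-133a at -0.81 and rno-miR-206 at -0.75). The smooth muscle miRNAs rno-miR-143 and rno-miR-145 are given above, and the endothelial rno-miR-126 was at -0.18. The liver miRNA rno-miR-122 was at 2.96 (standard error 1.84, adjusted p = 0.30 from edgeR), a value that turned to -3.37 without the second AA library. Among the listed miRNAs and the neighbours of the members, 43 were not called, and leaving out 1 library moved the log2 fold change of 35 of them by more than 1.5 times or turned its sign. It did so for 0 of the 10 that were called. This measure is relative, so values near 0 exceed it easily, and called miRNAs were selected for values large beside their error. Calls were still lost with 1 library left out. Of 8 such fits, rno-miR-107 was called in 0, rno-miR-199a-3p in 1, rno-miR-204 and rno-miR-223 in 3 each and rno-miR-140* in 5. The miR-34 members, rno-miR-21 and rno-miR-142-3p were called in all 8.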

How the data were processed

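Small RNA libraries from 4 control and 4 AA rat kidneys were run on the Illumina GA II instrument. The authors deposited counts, whole reads per known rat miRNA (miRBase 17) and library, made with miRanalyzer and Bowtie after removal of short and ambiguous reads, without normalization. Their processing notes also name DESeq. Column titles gave group and library number. Libraries of a group differed far beyond counting error, so none was listed more than once. The labels give each library as a separate rat and do not say that equal numbers mark a shared day or litter.

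A filter of 10 reads or more in 4 libraries or more left 367 of 620 miRNAs for the quasi-likelihood test of edgeR 4.0.16 under R 4.3.3 (TMM, Benjamini-Hochberg, threshold 0.05). The standard error is the log2 fold change divided by the square root of F. Log2 CPM used a prior count of 2. Ratios and shares used the exact permutation test. The fit was tested on simulated counts in which 200 of 367 miRNAs changed by 2 on the log2 scale. It recovered 94.5% of them with 6 false calls, and made 0 calls when nothing changed. Changes as small as those of the members were not simulated.

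The miRNAs named are the members, the 5 nearest to each main arm and the tested members of 10 lists. miR-15a, miR-155 and miR-486 matched no row, and miR-133b was not tested. The members and lists were chosen with earlier results of these data known. Alternatives were DESeq2 1.42.0 (size factors, Wald test), total counts, TMM without 4 abundant miRNAs (miR-378, miR-143, miR-30a, miR-21), other read filters, the library number as a block, each library left out, and libraries 1 to 3, for the spread between rats added after seeing the data. Depth was 13412373 to 15616670 reads. At about 100 reads counting error is of note. For abundant miRNAs the spread between rats sets the precision.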

Additional observations from a re-analysis of the deposited data

Results flagged for a closer look

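In 128 groups of 4 libraries examined, 17 values lay far from the other 3 of their group, where about 6.4 would by chance. Why they lay apart was not tested.

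Of the members, rno-miR-192* was at 25.2 CPM in the fourth control library, against 6.40 to 7.94 in the others of its group. The share of reads on all members was 6.92% in that library, against 2.43% to 3.08%. The log2 ratio of miR-192 to miR-194 was 4.95 there, against 3.53 to 3.76. That of miR-192 to miR-215 was 12.90 in the fourth control library, against 10.42 to 10.69, and 11.99 in the fourth AA library, against 10.65 to 10.79. The log2 ratio of miR-194 to miR-215 was 7.17 in the second AA library, against 6.85 to 6.89, and that of miR-194* to miR-194 was -7.76 in the third control library, against -7.64 to -7.63. These last 2 gaps are small, and they stand out because the other 3 libraries were close together.

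Among the other named miRNAs, the fourth control library was high for rno-miR-30c-2* (967 CPM, against 282 to 381), rno-miR-27b (5061, against 2583 to 2954) and rno-miR-107 (338, against 213 to 224). It was low for rno-miR-29a (3795 CPM, against 4681 to 4766) and rno-miR-29b (919, against 1332 to 1374). The fourth AA library was high for rno-miR-34a (877 CPM, against 442 to 516) and low for rno-miR-134 (8.53, against 19.5 to 21.3) and rno-miR-140 (154, against 296 to 321). rno-miR-122 was at 53.01 CPM in the first control library, against 4.05 to 5.89, and at 523 CPM in the second AA library, against 0.696 to 2.96.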

How the results depend on the processing

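Over all alternatives run, the log2 fold change of each of the 5 members stayed below 0, and miR-192, miR-192* and miR-215 were called in 0 of 16. miR-194 was called in 9 of 16 and miR-194* in 10. With total counts they were at -0.53 and -0.63 and without a filter at -0.73 and -0.84, none called. Leaving out 1 library gave -1.004 to -0.67 for miR-194 and -1.05 to -0.78 for miR-194*. The number of called miRNAs was 60 (38 higher, 22 lower), and 35 to 51 with 1 library left out (24 to 33 higher, 10 to 21 lower), with 37 without control library 1 and 35 without control library 2. Total counts called 14 lower and 54 higher. Total counts moved the median log2 fold change of all tested miRNAs from 0.06 to 0.27. The share of reads on the members differed by -1.22 percentage points, and by -2.89 with the 4 abundant miRNAs out of the denominator. The cause of these changes was not tested beyond that construction.

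With the library number as a replicate block, 78 miRNAs were called (47 higher, 31 lower). miR-194 was at -0.77 (adjusted p = 0.036 from edgeR) and miR-194* at -0.84 (0.031), and the block changed no call among the members. miR-192 was at -0.64 (0.083), miR-192* at -0.61 (0.22) and miR-215 at -0.51 (0.072), where the fit without it gave adjusted p of 0.20, 0.21 and 0.29. The labels do not say what a number marks. The deviations of same-numbered libraries had correlations of 0.05, 0.20, 0.14 and 0.35 for numbers 1 to 4, and 6 of 8 libraries correlated best with their own number, a hint of pairing from the data, not from the design. Number 1 stayed under 0.1, so the fit without the block was kept. Of the other miRNAs named, the block added calls for rno-miR-139-3p, rno-miR-30c-2*, rno-miR-27b, rno-miR-218, rno-miR-191, rno-miR-150 and rno-miR-199a-5p.

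Leaving out 1 library gave -0.22 to 0.46 for the difference of the log2 ratio of miR-192 to miR-194, -0.46 to 0.45 for miR-192 to miR-215, -0.38 to -0.0142 for miR-194 to miR-215, -0.19 to 0.24 for miR-192* to miR-192 and -0.21 to 0.0081 for miR-194* to miR-194. Signs turned for these uncalled miRNAs. With total counts, rno-miR-30a was at 0.0276, rno-miR-30b-5p at 0.19, rno-miR-30c at 0.0773, rno-miR-29c at 0.0887, rno-miR-429 at 0.14 and rno-miR-126 at 0.0212. rno-miR-30b-5p was at 0.0117 with 10 reads in all libraries and 0.0439 in libraries 1 to 3. rno-miR-10b and rno-miR-29a were at -0.0157 and -0.0123 with DESeq2 size factors, -0.0293 and -0.0416 with TMM lacking the 4 abundant miRNAs, and -0.0148 and -0.0123 in the Wald test. rno-miR-10b was at -0.0114 and rno-miR-122 at -1.26 with the block, and rno-miR-29a at -0.0342 in libraries 1 to 3. Leaving out 1 library gave ranges of -0.20 to 0.0023 (rno-miR-30b-5p), -0.24 to 0.23 (rno-miR-10b), -0.038 to 0.068 (rno-miR-29a), -3.37 to 4.73 (rno-miR-122), -0.14 to 0.21 (rno-miR-141), -0.21 to 0.016 (rno-miR-429), -0.043 to 0.46 (rno-miR-142-5p) and -0.64 to 0.035 (rno-miR-184). Other miRNAs kept their sign whichever library was left out, among them rno-miR-126, which turned only with total counts. Their ranges included -0.53 to -0.0067 (rno-miR-1), -1.26 to -0.28 (rno-miR-133a), 0.43 to 1.01 (rno-miR-199a-5p) and 0.18 to 0.62 (rno-miR-214). They also included -0.77 to -0.42 (rno-miR-382), -0.57 to -0.28 (rno-miR-143), -0.80 to -0.35 (rno-miR-144) and -0.43 to -0.068 (rno-miR-126).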
